A study of Mus musculus with 9 samples.

Results

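Cytochrome P450 genes were followed in whole mouse lung after inoculation with the mould Aspergillus fumigatus. The set comprised every coding gene whose symbol was Cyp followed by digits, a letter and digits, together with Por, the reductase that feeds electrons to these enzymes, and without Cyp2f2. It held 72 of the 18984 genes in the files. Of these, 28 reached 1 FPKM (sequenced fragments per transcript length and library size) in at least 3 of the 9 libraries and are reported by value, whereas 44 did not and are counted. A further 5 symbols that start with Cyp and a digit fell outside the rule, among them Cyp2f2, Cyp51 and Cyp2ab1. The third-highest library of the members stood at 1 FPKM just inside this threshold and at 0.86 FPKM just outside it.

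P450 enzymes are haem proteins that insert oxygen into small molecules. Those of the endoplasmic reticulum take electrons from NADPH through Por. Families differ in substrate: some clear inhaled toxicants and drugs, others hydroxylate fatty acids and eicosanoids, sterols or retinoids. In the lung they are best known from club cells, the secretory cells of the bronchioles, where they activate or detoxify airborne compounds.

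The mice were C57BL/6, and no mutation, transgene or age is given in the labels. Lungs were taken 24 hours after material was placed in the trachea. The 3 control libraries came from mice given normal saline, 3 from mice given conidia (the resting spores) of the fungus and 3 from mice given its hyphal fragments (pieces of the filamentous form). Whether the 3 libraries of each group stem from different mice is not stated in the labels, so a p-value here speaks of the spread among these samples, which could be technical. In bulk tissue such as whole lung, fewer cells of a type and less RNA per cell cannot be told apart.

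Summed FPKM ranged from 492540 to 561250 per library, and 12451 to 13730 genes reached 1 FPKM. Counts were not used here. The spacing of low values over 188 genes gave relative depths of 0.958 to 1.02. Only values within 1.3 times the lowest positive value of a gene entered, so a larger difference in depth could not show. Markers of lung epithelium were abundant in every library, with a summed level of 15720 to 31270 FPKM for 10 alveolar type 2 cell genes, while 8 hepatocyte genes summed to 0.88 to 4.75 FPKM. The median difference of all tested genes between hyphae and control libraries was -0.37 on the log2 scale as deposited. Changes are therefore given both as deposited and after each library was rescaled by a median-of-ratios factor, which places the median gene near 0. Statements that libraries overlapped, or lay above or below others, refer to FPKM as deposited unless rescaling is named. Some of them, such as those for Cyp1b1, Cyp39a1 and Cyp2d22, did not hold after rescaling.

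The sequences upstream of 3 genes are shown, chosen for their place in the results below. No link between these bases and the values was tested. Cyp2t4 had the only rise and Cyp4f15 the largest fall among members called after hyphal fragments, and Cyp1a1 is the standard target of the aryl hydrocarbon receptor and was added after its values were seen. Each line gives the 250 bases before the RefSeq start site, 5′ to 3′, on GRCm38.p6, with motif matches in capitals.
Cyp2t4 promoter, chr7:27153464-27153713, + strand: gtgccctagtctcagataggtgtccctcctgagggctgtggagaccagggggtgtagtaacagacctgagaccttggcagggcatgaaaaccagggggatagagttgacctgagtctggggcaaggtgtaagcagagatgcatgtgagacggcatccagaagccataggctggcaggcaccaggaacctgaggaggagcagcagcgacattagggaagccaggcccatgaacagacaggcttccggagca
Cyp4f15 promoter, chr17:32685409-32685658, + strand: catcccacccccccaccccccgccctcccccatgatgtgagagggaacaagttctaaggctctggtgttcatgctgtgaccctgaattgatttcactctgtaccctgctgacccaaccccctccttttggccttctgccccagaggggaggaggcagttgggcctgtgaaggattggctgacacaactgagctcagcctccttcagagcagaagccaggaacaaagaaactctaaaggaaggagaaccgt
Cyp1a1 promoter, chr9:57697363-57697612, + strand: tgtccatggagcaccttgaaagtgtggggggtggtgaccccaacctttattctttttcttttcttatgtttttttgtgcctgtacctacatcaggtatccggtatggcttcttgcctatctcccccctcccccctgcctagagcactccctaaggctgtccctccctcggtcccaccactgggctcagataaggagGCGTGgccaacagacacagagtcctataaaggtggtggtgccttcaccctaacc
Matches were sought on both strands in the 300 bases from 250 before to 50 after each start. The letters were GCGTG (the core bound by the aryl hydrocarbon receptor), TGANTCA (AP-1), TGACGTCA (the cyclic AMP response element) and CACGTG (an E-box). No matches overlapped in the windows printed. The windows of Cyp2t4 and Cyp4f15 held none of them, and that of Cyp1a1 held a single GCGTG. Of the 28 reported members, 24 had a promoter entry, with 25 windows between them. GCGTG occurred in 12 of these 25 windows, against 32.4% of all 32851 windows in the table. TGANTCA occurred in 3 (7.81% of all), CACGTG in 2 (7.15%) and TGACGTCA in none (1.79%). A match describes the letters only, and sites outside the windows were not sought.

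The set was led by a few abundant transcripts. Cyp4b1, which bioactivates plant furans in the lung, averaged 245 ± 34.2 FPKM in controls (mean ± SD, n = 3 here and throughout). Por averaged 240.4 ± 16.3 FPKM, Cyp2b10 145 ± 31.8 FPKM and Cyp2s1 119 ± 29.7 FPKM. Of the 28 reported members, 14 averaged above 10 FPKM over the 9 libraries and 4 averaged under 2 FPKM. The summed level of the set without Por was 917, 747 and 985 FPKM in controls, 783, 708 and 907 FPKM after conidia, and 765, 534 and 574 FPKM after hyphal fragments. The sums of the conidia and control libraries overlapped, as did those of the hyphae and control libraries. Makeup differed more than the total: Cyp4b1 or Cyp2b10 was the largest contributor in every library, but in control replicate 3 the retinoic acid hydroxylase Cyp26b1 supplied 18.9% of the sum, against 0.0942% to 1.01% in the other 8 libraries.

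**Figure D1:**
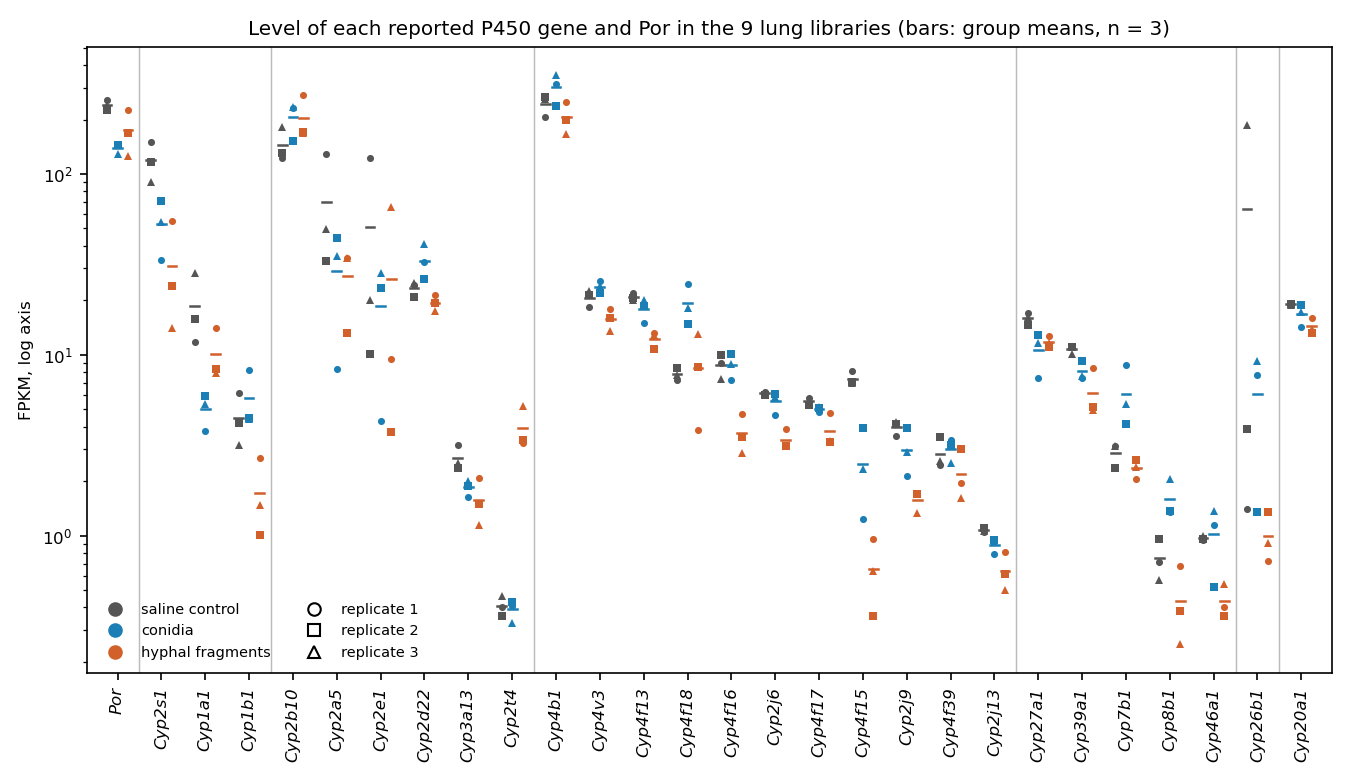
FPKM of each reported member (log axis) in the 9 libraries, by role from left to right: electron donor, aryl hydrocarbon receptor-induced, xenobiotic, fatty acid, sterol and steroid, vitamin A, other. Points are libraries and bars are means of 3. Cyp2t4 in hyphae libraries stands above all other libraries, Cyp4f15 steps down from control to conidia to hyphae, and Cyp26b1 and Cyp2e1 spread widely within control.

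After hyphal fragments nearly all called P450 transcripts were lower than after saline, and a single one was higher. By limma on log2(FPKM + 1), adjusted over 13761 genes, 16 of 28 members were called at an adjusted p under 0.05, with 1 higher (Cyp2t4) and 15 lower. The share called over all genes tested was 64.9% (14.9% higher and 50% lower), so the members' count lay near the background. The members' median difference was -0.48 against -0.37 for all genes. After rescaling, 9 members were called, 2 higher (Cyp2t4 and Cyp2b10) and 7 lower (Cyp4f15, Cyp2s1, Cyp4f16, Cyp2j9, Cyp39a1, Cyp2j6 and Cyp4f13), against 59.5% of all genes (29.5% higher and 30% lower). The rescaled median was -0.21 for members and -0.01 for all genes. In 17 members the hyphae libraries did not overlap the controls (1 above and 16 below), against 70.7% of all genes (17.3% above and 53.4% below). Without hyphae replicate 2 the count called was 9, and 8 of the 16 calls held whichever library was left out: Cyp2t4, Cyp4f15, Cyp2s1, Cyp4f16, Cyp2j9, Cyp39a1, Cyp2j6 and Cyp4f13. The shares of all genes called in these fits are not reported here.

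After conidia no member was called by limma, against 0.69% of all genes (0.596% higher and 0.0945% lower), and the smallest adjusted p was 0.0577 (Cyp1a1). After rescaling there was again no call, against 0.342% of all genes (0.298% higher and 0.0436% lower). At an unadjusted p under 0.05 there were 10 members, 4 higher and 6 lower, against 21.1% of all genes. Conidia libraries did not overlap controls in 13 members (4 above and 9 below), against 29.8% of all genes (12% above and 17.8% below). Those above were Cyp4f18, Cyp7b1, Cyp8b1 and Cyp2d22. Those below were Cyp1a1, Cyp4f15, Cyp2s1, Por, Cyp27a1, Cyp39a1, Cyp3a13, Cyp4f17 and Cyp2j13. The absence of calls depended on the libraries fitted: 6 members were called without conidia replicate 2 (Cyp1a1, Cyp4f15, Por and Cyp27a1 lower, Cyp7b1 and Cyp2d22 higher), 3 without hyphae replicate 1 (Cyp1a1, Por and Cyp4f18) and 1 without hyphae replicate 3 (Por). Calls over all genes also rose far above 95 in the fit without conidia replicate 2, as given in the last section. The shares of all genes called in the fits without hyphae replicate 1 or 3 are not reported here. The member counts of those fits therefore stand without a background.

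Set directly against each other, hyphae and conidia libraries differed in 15 of 28 members, 2 higher in hyphae (Cyp2t4 and Cyp1a1) and 13 lower, against 55.2% of all genes (12.7% higher and 42.5% lower). After rescaling 10 were called, 4 higher (Cyp2t4, Cyp1a1, Por and Cyp27a1) and 6 lower (Cyp4f15, Cyp4f16, Cyp1b1, Cyp7b1, Cyp8b1 and Cyp2j6), against 51% of all genes (25.8% higher and 25.2% lower). The libraries of these groups did not overlap in 14 members, 2 with hyphae above and 12 with hyphae below, against 59.9% of all genes (14.8% above and 45.1% below). These comparisons share the control or treated libraries among them, so their values are given side by side and not as independent results.

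**Figure D2:**
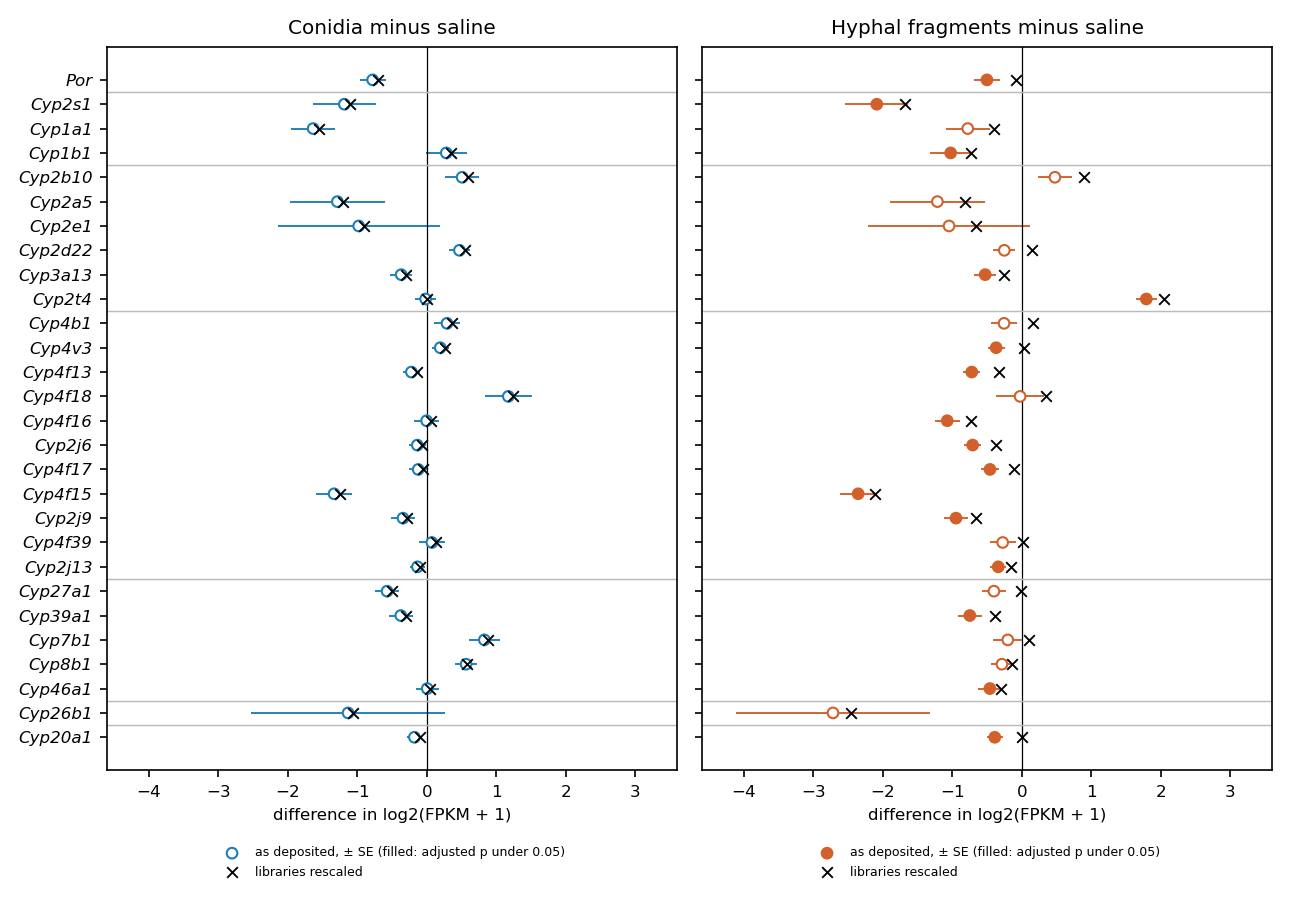
Difference in log2(FPKM + 1) from saline for each reported member after conidia (left) and hyphal fragments (right), by role from top to bottom. Circles are values as deposited with the SE of the limma fit, filled where the adjusted p was under 0.05, and crosses are values after rescaling. No circle is filled on the left; on the right, Cyp2t4 lies far above 0 and Cyp4f15 and Cyp2s1 far below it.

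Por, the flavoprotein that donates electrons to microsomal P450 enzymes and haem oxygenase, stood at 257, 225 and 239 FPKM in controls, 144, 145 and 129 FPKM after conidia, and 227, 169 and 126 FPKM after hyphal fragments. All conidia libraries lay below all controls, while hyphae replicate 1 lay inside the control range. The difference of conidia from control was -0.78 ± 0.19 on the log2 scale (± SE, adjusted p = 0.0861), a 1.72-fold lower mean. That of hyphae from control was called as deposited (-0.50 ± 0.19, adjusted p = 0.0389) but not after rescaling (-0.09, adjusted p = 0.674), and it was lost in 7 of the 9 fits that left out a library.

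Of 22 further genes for redox partners and haem supply, 20 were tested. After hyphal fragments 3 were higher and 12 lower, near the 14.9% and 50% of all genes. After rescaling 4 were higher and 8 lower, against 29.5% and 30%. The median was -0.63 as deposited. Alas1, the rate-limiting enzyme of haem synthesis, fell from 271 ± 70.5 to 86.9 ± 47.3 FPKM (log2 difference -1.72 ± 0.34, adjusted p = 0.00212). Uros, a later enzyme of that pathway, fell from 8.61 ± 0.83 to 2.49 ± 0.88 FPKM (-1.49, adjusted p = 0.000394), and the cytochrome b5 reductase family member Cyb5r1 from 22.3 ± 1.94 to 11.3 ± 3.94 FPKM (-0.97, adjusted p = 0.00466). The haem-degrading oxygenase Hmox1 went the other way, rising from 31.4 ± 4.74 to 113 ± 49.5 FPKM (1.70, adjusted p = 0.0034). These 4 calls held after rescaling. After conidia none of the 20 was called by limma. Hmox1 averaged 105 ± 33.8 FPKM there, a log2 difference of 1.66 with an adjusted p of 0.0759.

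The reported members that ligands of the aryl hydrocarbon receptor induce did not move as a block. Cyp1a1, which oxidises polycyclic aromatic hydrocarbons, stood at 11.8, 15.7 and 28.3 FPKM in controls, 3.78, 5.90 and 5.33 FPKM after conidia, and 14.0, 8.29 and 7.91 FPKM after hyphal fragments. Conidia libraries were the lowest in every case and overlapped neither other group, whereas hyphae and control libraries overlapped. The conidia difference was -1.64 ± 0.32 (adjusted p = 0.0577) and the hyphae difference -0.78 ± 0.32 (adjusted p = 0.0549), neither of them called. Hyphae against conidia gave a difference of 0.86 ± 0.32 (adjusted p = 0.0449), called as deposited and after rescaling (1.16, adjusted p = 0.0118). The deposited call was lost in 7 of the 9 fits that left out a library.

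Cyp1b1, which oxidises oestrogens and aromatic hydrocarbons, stood at 6.12, 4.19 and 3.17 FPKM in controls, 8.28, 4.48 and 4.43 FPKM after conidia, and 2.67, 1.01 and 1.48 FPKM after hyphal fragments. Every hyphae library was below every other library, and conidia and control overlapped. It fell after hyphal fragments by 1.02 on the log2 scale (-1.02 ± 0.30, adjusted p = 0.0143), a call lost after rescaling (-0.74, adjusted p = 0.0645) and without control replicate 1 or hyphae replicate 2. Against conidia it was lower with and without rescaling (-1.31 ± 0.30, adjusted p = 0.00579, and -1.08, adjusted p = 0.0175). Thus Cyp1a1 and Cyp1b1 took opposite signs in the direct contrast of the fungal forms.

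Cyp2s1, a P450 of airway epithelium, stood at 149, 117 and 90.2 FPKM in controls, 33.3, 70.9 and 54.5 FPKM after conidia, and 54.9, 23.9 and 14.1 FPKM after hyphal fragments. All treated libraries lay below all controls, and those of conidia and hyphae overlapped. After hyphal fragments it fell 3.84-fold in mean level (-2.09 ± 0.45, adjusted p = 0.00356; rescaled -1.68, adjusted p = 0.0083). After conidia the difference was -1.19 ± 0.45 (adjusted p = 0.19). The summed level of 10 ciliated cell markers took the same order as Cyp2s1 within each group: 928, 869 and 677 FPKM in controls, 320, 599 and 428 FPKM after conidia, and 466, 331 and 302 FPKM after hyphal fragments. All 10 of these markers fell after hyphal fragments (9 after rescaling), where 50% and 30% of all genes were lower. None of the markers was at 0 in all libraries. The summed level of 10 club cell markers took the order of Cyp2s1 within controls and within hyphae libraries. It did not within conidia libraries, at 50860, 48970 and 67020 FPKM. The part of either marker list in the Cyp2s1 difference was not tested.

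Other genes of the receptor pathway, 9 of 11 tested, gave 2 higher and 4 lower after hyphal fragments (3 and 2 after rescaling, median -0.42 as deposited) and no limma call after conidia. Over all genes 14.9% were higher and 50% lower, and 29.5% and 30% after rescaling. Tiparp, a receptor target that represses the receptor, rose from 11.01 ± 0.51 to 55.9 ± 5.81 FPKM (log2 difference 2.24 ± 0.21, adjusted p = 6.15e-05). The receptor gene Ahr itself fell from 20.7 ± 1.65 to 9.89 ± 1.87 FPKM (-1.01 ± 0.16, adjusted p = 0.000692). The glucuronosyltransferase Ugt1a6a fell as deposited (-0.96, adjusted p = 0.0445) but not after rescaling (-0.60, adjusted p = 0.156).

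Of 30 members from families that chiefly clear drugs and toxicants, 6 were reported. Cyp2t4 was the only member called higher than control as deposited. It stood at 0.40, 0.36 and 0.46 FPKM in controls, 0.41, 0.43 and 0.33 FPKM after conidia, and 3.24, 3.36 and 5.23 FPKM after hyphal fragments. Each hyphae library was above 3 FPKM and every other library below 0.5 FPKM. The mean was 9.7-fold higher than in controls (log2 difference 1.79 ± 0.15, adjusted p = 4.62e-05; rescaled 2.04, adjusted p = 5.12e-05) and 10.1-fold higher than after conidia (1.81 ± 0.15, adjusted p = 6.59e-05). The difference of conidia from control was -0.02 ± 0.15 (adjusted p = 0.958). Cyp2t4 passed the threshold for testing only through the hyphae libraries, so a rise was favoured by the threshold, and the call held when no threshold was set. Its level stayed low beside the abundant members.

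By RefSeq gene order all 72 members could be placed, and 9 loci held at least 2 of them. Cyp2t4 is the last member of a run on chromosome 7 that reads Cyp2s1, Cyp2b10, Cyp2b13, Cyp2b9, Cyp2a4, Cyp2b23, Cyp2b19, Cyp2g1, Cyp2a5, Cyp2a22, Cyp2a12 and Cyp2t4, with Cyp2f2 before Cyp2t4 and Egln2 after it. Of these 12 members 4 were reported: Cyp2s1 fell, Cyp2t4 rose, and Cyp2b10 and Cyp2a5 were not called as deposited. The neighbour Egln2, a prolyl hydroxylase that senses oxygen, stood at 29.1, 30.5 and 33.9 FPKM in controls, 35.7, 32.0 and 28.0 FPKM after conidia, and 49.3, 54.7 and 58.1 FPKM after hyphal fragments. It too was above all other libraries after hyphal fragments (0.77 ± 0.11, adjusted p = 0.000424). The neighbour on the other side, Cyp2f2, went the other way, from 2806 ± 831 to 710 ± 316 FPKM (-2.03 ± 0.39, adjusted p = 0.00193). Of 3 neighbours listed after the values were seen, 2 were called higher and 1 lower. Over all genes the shares were 14.9% and 50%. Whether the kit kept strand is not stated, so reads from overlapping or read-through transcripts of neighbours cannot be told apart from those of Cyp2t4.

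**Figure D3:**
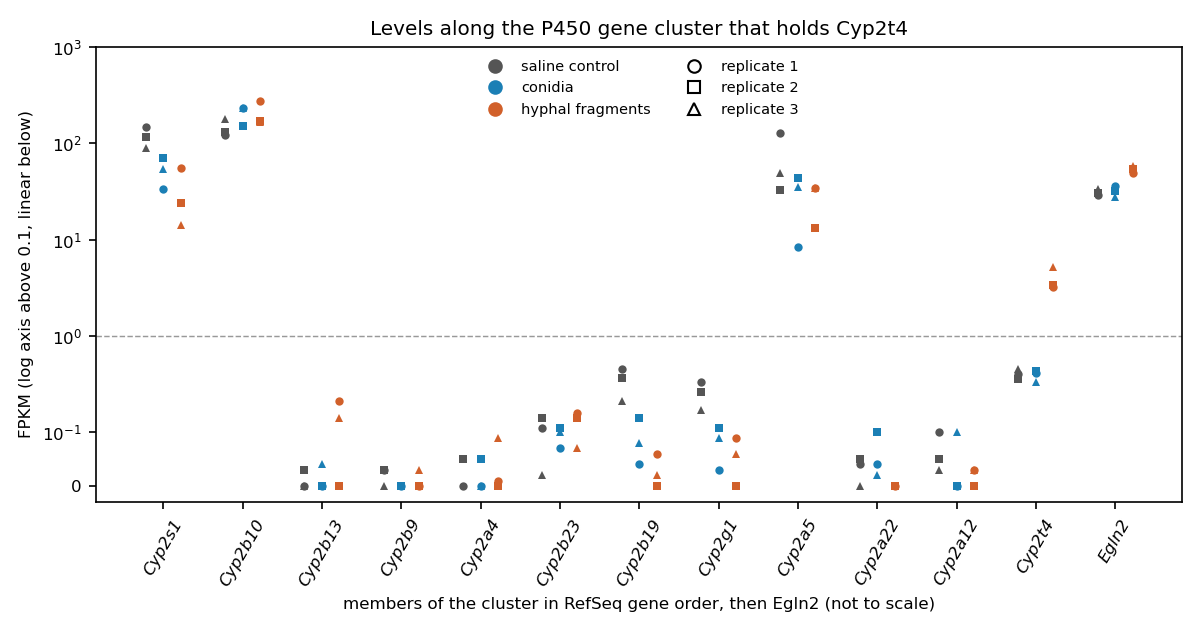
FPKM in the 9 libraries (log axis above 0.1, linear below) of the P450 members around Cyp2t4 in RefSeq gene order, followed by Egln2; the dashed line marks 1 FPKM. Cyp2s1, Cyp2b10 and Cyp2a5 are expressed, the members between them are near 0, and Cyp2t4 crosses the line in the 3 hyphae libraries only.

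Cyp2b10, a phenobarbital-inducible enzyme, was the most abundant of these 6. It stood at 122, 131 and 181 FPKM in controls, 233, 153 and 235 FPKM after conidia, and 272, 171 and 168 FPKM after hyphal fragments. The ranges overlapped in every comparison. The hyphae difference was 0.48 ± 0.25 (adjusted p = 0.119) as deposited and 0.89 after rescaling (adjusted p = 0.0142), so its call as higher rests on the rescaling. After conidia it was 0.51 ± 0.25 (adjusted p = 0.269).

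Cyp2a5, which oxidises coumarin and nicotine, and Cyp2e1, which oxidises ethanol, varied mainly between libraries of a group. Cyp2a5 stood at 129, 32.8 and 49.7 FPKM in controls, 8.37, 44.2 and 35.1 FPKM after conidia, and 34.3, 13.2 and 34.4 FPKM after hyphal fragments. Cyp2e1 stood at 123, 10.1 and 20.2 FPKM in controls, 4.28, 23.3 and 28.4 FPKM after conidia, and 9.48, 3.72 and 65.3 FPKM after hyphal fragments. Control replicate 1 was the highest library for both, and no comparison of either was called. The 6 adipose markers, which include adiponectin and none of which was at 0 in all libraries, summed to 863, 35.5 and 100.3 FPKM in controls, 20.7, 96.3 and 199 FPKM after conidia, and 34.1, 9.73 and 396 FPKM after hyphal fragments. The 3 highest and the 3 lowest libraries of this sum were the same as those of Cyp2e1. Heart muscle markers were also highest in hyphae replicate 3 (2010 FPKM) and control replicate 1 (1338 FPKM). The part of this in the P450 values was not tested. Without those 2 libraries the Cyp2e1 difference of conidia from control was 0.02 rather than -0.98. In that fit 9 members rather than 16 were called after hyphal fragments. The count was also 9 without hyphae replicate 2 alone, the library with the lowest adipose sum.

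Of the remaining members of this group, Cyp2d22 averaged 23.3 ± 2.18 FPKM in controls, 33.1 ± 7.34 after conidia and 19.4 ± 2.04 after hyphal fragments. All conidia libraries were above all others, and only the contrast of hyphae with conidia was called (-0.72 ± 0.16, adjusted p = 0.00433; rescaled -0.40, adjusted p = 0.0681). Cyp3a13 fell after hyphal fragments from 2.69 ± 0.43 to 1.57 ± 0.47 FPKM (-0.53 ± 0.16, adjusted p = 0.0149), a call lost after rescaling (-0.26, adjusted p = 0.142) and without control replicate 1 or hyphae replicate 3.

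The fatty acid and eicosanoid hydroxylases were the group with the most reported members. Of 20 members 11 were reported, and 8 of them fell after hyphal fragments, 5 of them also after rescaling, where 50% and 30% of all genes were lower. None rose. After hyphal fragments the group's median difference was -0.46, and after conidia it was -0.12 with no call by limma. The 5 were Cyp4f15, Cyp4f16, Cyp2j9, Cyp2j6 and Cyp4f13.

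Cyp4f15, of the subfamily that hydroxylates leukotrienes and other fatty acids, showed the largest fall. It stood at 8.12, 7.10 and 6.94 FPKM in controls, 1.23, 3.92 and 2.33 FPKM after conidia, and 0.96, 0.36 and 0.64 FPKM after hyphal fragments. The groups formed 3 separate steps with no overlap. The mean after hyphal fragments was 11.3-fold lower than in controls (-2.36 ± 0.26, adjusted p = 0.000127; rescaled -2.12, adjusted p = 0.000163) and 3.82-fold lower than after conidia (-1.02 ± 0.26, adjusted p = 0.00991). After conidia the mean was 2.96-fold lower than in controls, with an adjusted p of 0.0583 (-1.33 ± 0.26).

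Cyp4f16, from the same run of genes, stood at 9.05, 10.02 and 7.30 FPKM in controls, 7.27, 10.1 and 8.92 FPKM after conidia, and 4.68, 3.50 and 2.85 FPKM after hyphal fragments. Conidia and control libraries covered the same range, and hyphae libraries lay below both. It fell after hyphal fragments (-1.07 ± 0.18, adjusted p = 0.000826; rescaled -0.73, adjusted p = 0.00294), while the conidia difference was -0.003 ± 0.18 (adjusted p = 0.993). Cyp4f16 and Cyp4f15 therefore shared the hyphae fall but not the low conidia values, though that difference between genes was not tested. In that run, Cyp4f13 fell from 20.8 ± 0.95 to 12.3 ± 1.36 FPKM (-0.72 ± 0.12, adjusted p = 0.000985). Cyp4f17 fell from 5.54 ± 0.26 to 3.80 ± 0.85 FPKM (-0.46, adjusted p = 0.0124), but not after rescaling (-0.12, adjusted p = 0.364) or without hyphae replicate 2. Cyp4f39 was not called in any comparison (hyphae difference -0.28, adjusted p = 0.217).

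The Cyp2j genes, arachidonic acid epoxygenases that lie together in another run, gave 3 reported members. All were lower after hyphal fragments as deposited, where 50% of all genes were lower. Cyp2j9 stood at 3.56, 4.13 and 4.22 FPKM in controls, 2.13, 3.93 and 2.88 FPKM after conidia, and 1.69, 1.70 and 1.34 FPKM after hyphal fragments. Hyphae libraries lay below all others, and conidia overlapped control. It fell after hyphal fragments (-0.95 ± 0.17, adjusted p = 0.00116; rescaled -0.66, adjusted p = 0.00458). Cyp2j6 fell from 6.13 ± 0.12 to 3.38 ± 0.44 FPKM (-0.71 ± 0.12, adjusted p = 0.00095; rescaled -0.37, adjusted p = 0.00784). Cyp2j13, near the threshold for reporting, fell from 1.07 ± 0.03 to 0.64 ± 0.16 FPKM (-0.34, adjusted p = 0.0236), which was lost after rescaling (-0.16, adjusted p = 0.204) and in 5 of the 9 fits that left out a library. It passed the threshold only through the control libraries, which favoured a fall.

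The most abundant member, Cyp4b1, stood at 205, 268 and 261 FPKM in controls, 315, 238 and 351 FPKM after conidia, and 251, 200 and 167 FPKM after hyphal fragments. All 3 groups overlapped. Its hyphae difference was -0.26 ± 0.19 (adjusted p = 0.268) and turned to 0.16 after rescaling (adjusted p = 0.507). Cyp4v3, a fatty acid hydroxylase, fell after hyphal fragments from 20.7 ± 2.09 to 15.8 ± 2.24 FPKM (-0.37, adjusted p = 0.0243), but the rescaled value was 0.02 (adjusted p = 0.88), and 4 of the 9 fits that left out a library lost the call.

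Cyp4f18, which inactivates the neutrophil attractant leukotriene B4 in neutrophils, was named after its values were seen. It stood at 7.23, 8.44 and 7.77 FPKM in controls, 24.6, 14.9 and 18.2 FPKM after conidia, and 3.82, 8.52 and 13.1 FPKM after hyphal fragments. Every conidia library was above every other library, while hyphae libraries lay on both sides of the controls. The conidia difference was 1.17 ± 0.34 (adjusted p = 0.122), the hyphae difference -0.03 ± 0.34 (adjusted p = 0.952) and the direct contrast -1.20 ± 0.34 (adjusted p = 0.0164; rescaled -0.89, adjusted p = 0.0851). That last call was also lost without conidia replicate 1. The 11 neutrophil markers, none of them at 0 in all libraries, summed to 135, 141 and 157 FPKM in controls, 3106, 868 and 2229 FPKM after conidia, and 674, 1921 and 5978 FPKM after hyphal fragments. Within conidia and within hyphae, Cyp4f18 took the same order as this sum. Between them it did not, since hyphae replicate 3 had the highest marker sum and less Cyp4f18 than any conidia library. The markers did not move alike: 2 were called higher in hyphae than in conidia libraries and 1 lower, against 12.7% and 42.5% of all genes. The lower one, Csf3r, stood at 103, 88.55 and 108 FPKM after conidia, and 12.0, 25.9 and 44.1 FPKM after hyphal fragments. The part of the marker level in the Cyp4f18 values was not tested.

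**Figure D4:**
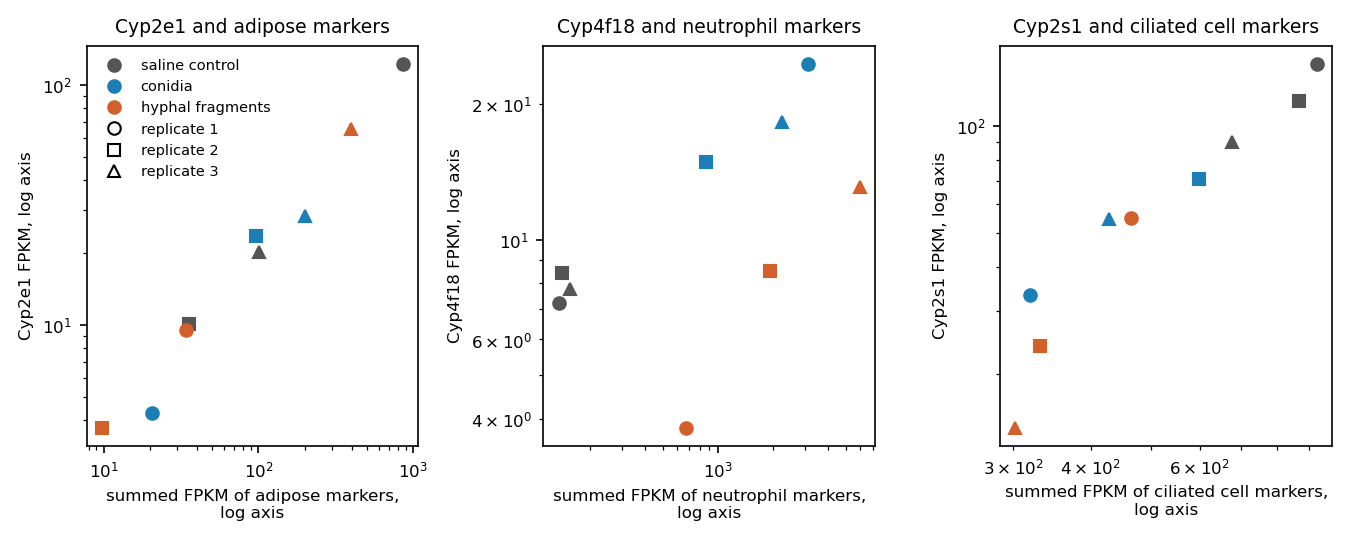
FPKM of 3 members against the summed FPKM of a marker list in the 9 libraries (both axes log): Cyp2e1 with adipose markers, Cyp4f18 with neutrophil markers and Cyp2s1 with ciliated cell markers. The highest Cyp2e1 libraries, control replicate 1 and hyphae replicate 3, also have the highest adipose sums, at 863 and 396 FPKM. Hyphae libraries have less Cyp4f18 than conidia libraries at a like neutrophil sum, though single markers in that sum differ in direction between these groups.

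Of 10 members for sterols, bile acids and steroids, 5 were reported. Of these, 2 fell after hyphal fragments (1 after rescaling), where 50% and 30% of all genes were lower. Cyp39a1, an oxysterol hydroxylase, stood at 11.2, 11.1 and 10.1 FPKM in controls, 7.44, 9.22 and 7.66 FPKM after conidia, and 8.40, 5.15 and 4.93 FPKM after hyphal fragments. All treated libraries were below all controls, and treated groups overlapped. It fell after hyphal fragments (-0.75 ± 0.17, adjusted p = 0.00473; rescaled -0.38, adjusted p = 0.0449), and after conidia the difference was -0.37 ± 0.17 (adjusted p = 0.253). Cyp46a1, the cholesterol hydroxylase known from neurons, fell from 0.97 ± 0.03 to 0.43 ± 0.09 FPKM (-0.46, adjusted p = 0.034), but not after rescaling (-0.30, adjusted p = 0.153) and not in 5 of the 9 fits that left out a library. It passed the threshold only through control replicate 3 and conidia replicates 1 and 3, which favoured a fall after hyphal fragments.

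A pair of sterol hydroxylases stood highest after conidia. Cyp7b1, an oxysterol hydroxylase named after its values were seen, stood at 3.12, 2.37 and 3.11 FPKM in controls, 8.80, 4.14 and 5.34 FPKM after conidia, and 2.05, 2.61 and 2.40 FPKM after hyphal fragments. Conidia libraries were above all others, and hyphae overlapped control. The conidia difference was 0.83 ± 0.22 (adjusted p = 0.102), and hyphae were lower than conidia with and without rescaling (-1.03 ± 0.22, adjusted p = 0.00391, and -0.78, adjusted p = 0.0273). Cyp8b1, which directs bile acid synthesis towards cholic acid, averaged 0.75 ± 0.20 FPKM in controls, 1.59 ± 0.40 after conidia and 0.44 ± 0.22 after hyphal fragments. Its conidia libraries were also above all others (0.57 ± 0.16, adjusted p = 0.118), and it was lower after hyphal fragments than after conidia (-0.85 ± 0.16, adjusted p = 0.00236). It passed the threshold for testing only through the conidia libraries, so a difference of this direction was favoured by the threshold, and the call held when no threshold was set. Cyp27a1, the sterol side-chain hydroxylase of mitochondria, averaged 15.9 ± 1.26, 10.6 ± 2.82 and 11.8 ± 0.83 FPKM in control, conidia and hyphae libraries. As deposited, both treated groups lay below all controls, and neither difference was called (-0.57, adjusted p = 0.125, and -0.40, adjusted p = 0.0645). After rescaling the differences were -0.50 (adjusted p = 0.12) after conidia and -0.01 (adjusted p = 0.94) after hyphal fragments. The rescaled Cyp27a1 values of hyphae and control libraries overlapped. Cyp20a1, a conserved P450 without an established substrate, fell after hyphal fragments from 19.04 ± 0.17 to 14.3 ± 1.37 FPKM (-0.39, adjusted p = 0.0133), a call lost after rescaling (0.003, adjusted p = 0.976) and without hyphae replicate 2.

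Among 6 members for vitamins A and D only Cyp26b1, which clears retinoic acid, was reported. It stood at 1.40, 3.90 and 186 FPKM in controls, 7.70, 1.35 and 9.20 FPKM after conidia, and 0.72, 1.35 and 0.91 FPKM after hyphal fragments. A single library, control replicate 3, carried the control mean, and no comparison was called (hyphae difference -2.72 ± 1.39, adjusted p = 0.115). This depended on the libraries fitted: hyphae against control was called without control replicate 1 (-3.94, adjusted p = 0.0374), and hyphae against conidia (-1.59, adjusted p = 0.361) was called without control replicate 3 (adjusted p = 0.0408) and in a fit of those 2 groups alone (adjusted p = 0.0481). Without that library the conidia difference turned from -1.13 to 0.79. Of 13 genes of retinoid handling and response, a list added after the values were seen, 5 also had their highest value in this library, among them Lrat, Dhrs3, Rarb and Rarg. Others did not: Aldh1a1, Aldh1a3, Rdh10 and Rara had their lowest control value there. Of the 11 tested, 8 fell and 1 rose after hyphal fragments, or 4 and 2 after rescaling. Shares over all genes were 50% lower and 14.9% higher, or 30% and 29.5% after rescaling. Lrat, which stores retinol as esters, stood at 4.55, 5.54 and 46.5 FPKM in controls, 2.09, 2.39 and 3.34 FPKM after conidia, and 0.96, 1.32 and 0.55 FPKM after hyphal fragments. Dhrs3, which returns retinaldehyde to retinol, ranged from 84.3 to 129 FPKM in controls and from 29.7 to 48.4 FPKM after hyphal fragments. The haemoglobin transcript Hbb-bs, from a list also added after the values were seen, was highest among controls in replicate 3. It stood there at 6461 FPKM against 778 and 2107 FPKM. The 3 genes of that list summed to 12990 FPKM in control replicate 3. They also summed to 12050 and 12420 FPKM in hyphae replicates 2 and 3, where Cyp26b1 stood at 1.35 and 0.91 FPKM. The part of any of these in Cyp26b1 was not tested.

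**Figure D5:**
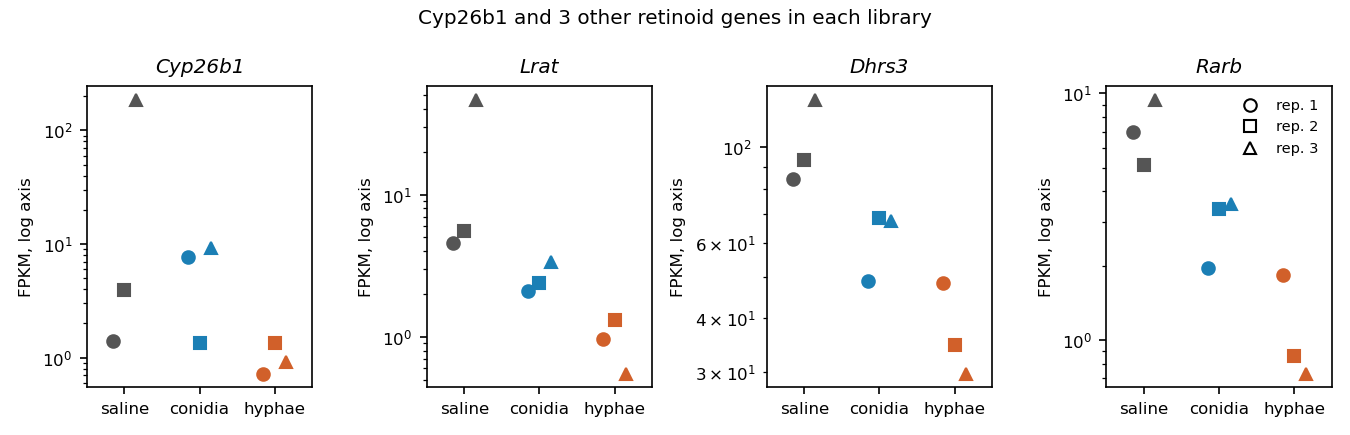
FPKM (log axis) of Cyp26b1, Lrat, Dhrs3 and Rarb in each library, by group. These 3 other genes were chosen from a list of 13, of which 5 peak in control replicate 3 (triangle), and that library is therefore the highest in every panel, at 186 FPKM for Cyp26b1; hyphae libraries are the lowest for Lrat, Dhrs3 and Rarb.

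Nuclear receptors that govern P450 genes were read from a list of 20, of which 14 were tested. After hyphal fragments 2 were higher and 8 lower, or 4 and 5 after rescaling (median -0.36 as deposited and 0.04 rescaled), and none was called by limma after conidia. These counts lay near the shares of all genes, 14.9% and 50% as deposited and 29.5% and 30% rescaled. The 4 largest changes were falls that held after rescaling. The retinoic acid receptor Rarg fell from 60.2 ± 3.30 to 12.3 ± 0.42 FPKM (-2.20 ± 0.12, adjusted p = 1.89e-05), and Rarb, a receptor that retinoic acid itself induces, from 7.18 ± 2.16 to 1.14 ± 0.61 FPKM (-1.93 ± 0.27, adjusted p = 0.000323). The oxysterol receptor Nr1h3 fell from 24.4 ± 1.36 to 8.90 ± 1.09 FPKM (-1.37, adjusted p = 5.36e-05), and Nr2f2 from 37.6 ± 3.47 to 14.3 ± 3.49 FPKM (-1.36, adjusted p = 0.000393).

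Of 36 genes for enzymes that share or follow P450 reactions, 33 were tested. After hyphal fragments 19 fell and none rose, against 50% lower and 14.9% higher over all genes. After rescaling 8 fell and 2 rose, against 30% and 29.5%, so the count of falls lay near the background on both scales. The median was -0.68 as deposited and -0.26 rescaled. The flavin monooxygenase Fmo1 fell from 191 ± 18.1 to 61.3 ± 5.15 FPKM (-1.62, adjusted p = 7.06e-05). The sulfotransferase Sult1d1 fell from 10.7 ± 5.97 to 2.30 ± 0.88 FPKM (-1.74, adjusted p = 0.00622) and the glutathione transferase Gstt3 from 32.2 ± 1.75 to 11.8 ± 5.39 FPKM (-1.46, adjusted p = 0.000945). No gene of this list was called after conidia. Of 3 P450 genes outside the naming rule, Cyp51, which demethylates lanosterol for cholesterol synthesis, fell after hyphal fragments from 12.4 ± 0.80 to 6.13 ± 1.45 FPKM (-0.93, adjusted p = 0.000758).

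The 44 members under the threshold stayed near the limit of detection. None was at 0 in all 9 libraries, 41 never reached 1 FPKM, and the highest single value was 1.34 FPKM (Cyp4a32, a fatty acid hydroxylase, after conidia). They included 24 of the 30 xenobiotic members, 9 of the 20 fatty acid members, 5 of the 10 sterol members and 5 of the 6 vitamin members. Cyp27b1, which activates vitamin D, stood at 0.11, 0.02 and 0.08 FPKM in controls, 0.68, 0.11 and 0.24 FPKM after conidia, and 0.70, 0.74 and 1.13 FPKM after hyphal fragments. Its hyphae libraries were all above the others, but it was not tested because only a single library reached 1 FPKM, and it was named after its values were seen.

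Cell type markers moved in both directions beside these changes, and for several lists the balance of calls depended on the scaling. Over all genes the shares after hyphal fragments were 14.9% higher and 50% lower as deposited, and 29.5% and 30% after rescaling. Of 11 neutrophil markers 9 rose, with and without rescaling. Of 10 club cell markers 8 fell (3 after rescaling), and of 5 smooth muscle markers 3 fell (1 after rescaling). Fibroblast markers gave 1 higher and 2 lower of 9 (2 and 1 after rescaling), and alveolar macrophage markers 0 and 2 of 8, which turned to 2 and 0 after rescaling. Alveolar type 2 markers gave 1 higher and 3 lower of 10 (4 and 2 after rescaling), alveolar type 1 markers 1 and 2 of 8 (4 and 1), and endothelial markers 3 and 1 of 10 (3 and 0). No adipose (5 tested) or cardiac (6 tested) marker was called, and of the hepatocyte and adrenal lists 1 gene each was tested, with 1 call higher and 1 lower. After conidia the club cell marker Cbr2 fell with and without rescaling. The neutrophil markers S100a9, Csf3r and Mmp8 rose as deposited (largest adjusted p = 0.047), but none of them was called after rescaling (adjusted p = 0.0623 to 0.0636), and no other marker was called by limma. Club cell markers summed to 128200, 87590 and 70250 FPKM in controls, 50860, 48970 and 67020 FPKM after conidia, and 42330, 38380 and 33340 FPKM after hyphal fragments, so both treated groups were below all controls in this sum. A single gene, Scgb1a1, made up most of it. Its own conidia and control libraries overlapped (60182 FPKM in conidia replicate 3 and 59121 FPKM in control replicate 3). The part of cell makeup in the P450 changes was not tested.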

How the data were processed

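Poly(A) RNA in 9 lung libraries was sequenced on a BGISEQ instrument, per the labels' protocols. The authors deposited FPKM with 2 decimals, 1 file per library, per the file headers. The submitters' processing notes name HISAT, Bowtie2 and mm9, and the tool behind the FPKM values was not given in the sources used here. Low values are the least precise, and FPKM allows no counting interval.

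In R 4.3.3, log2(FPKM + 1) was fitted with limma 3.58.1 (trend, robust, a term per group, all 9 libraries) for genes that reached 1 FPKM in 3 or more libraries. Tests were two-sided, with Benjamini-Hochberg adjustment over 13761 genes, called under 0.05, and checked on simulated data. The added 1 understates changes of low genes. A rank-based exact permutation test of 3 against 3 libraries cannot go below a two-sided p of 0.1. Median-of-ratios factors used 13701 genes.

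Per-library values are given for Por, for members called after conidia, for the 6 largest non-overlapping rises and falls after hyphal fragments, for the 4 most abundant members, and for Cyp1a1 and Cyp1b1. Cyp2a5, Cyp2e1, Cyp4f18, Cyp7b1 and Cyp26b1 were added after their values were seen. From each of 5 pathway lists up to 4 of the largest called changes after hyphal fragments are named (some are not reported here), and 13 marker lists are counted. Members and lists were chosen with earlier results of these data known. Gene order and promoters are from RefSeq on GRCm38.p6, matched by Entrez ID, and no coordinates of that build were applied to the mm9 values.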

Additional observations from a re-analysis of the deposited data

How the results depend on the processing

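The count of P450 genes called after hyphal fragments was 16, stayed at 15 or 16 with another pseudocount, filter or moderation, with only the 2 groups compared and with a replicate block (16), and moved to 9 after rescaling. The cause was not tested. Leaving out each library gave 9 to 17, and 9 when the 2 libraries richest in adipose markers were left out, an alternative chosen after seeing the data. For hyphae against conidia the count was 15 and ranged from 10 to 16 over all alternatives (13 with the replicate block). The all-gene counts beside these hyphae ranges are not reported here. For conidia against control it was 0 and became 2 (Por and Cyp4f18) in a fit of the 2 groups alone and 0 to 6 on leaving out a library. The all-gene count in that fit of the 2 groups alone is not reported here. All genes called for conidia numbered 95 and moved to 43 without a filter on low values, 47 after rescaling, 57 with the replicate block, 0 to 1535 on leaving out a library (1535 without conidia replicate 2) and 0 without the 2 adipose-rich libraries. The replicate numbers were not taken to pair the libraries. Same-numbered libraries had correlations of deviations from -0.312 to 0.425, and 22.2% of pairs were above 0.1. These few values cannot show whether same-numbered libraries shared a batch.

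Among values of the 16 members given per library, 726 kept their side of the threshold and direction, 38 lost a call, 21 gained one and 31 turned sign, none of the latter with a call. Rescaling turned the sign for conidia against control of Cyp2t4 (0.005) and Cyp4f16 (0.066), for hyphae against control of Cyp4b1 (0.159), Cyp4f18 (0.345) and Cyp7b1 (0.1), and for hyphae against conidia of Cyp2b10 (0.304) and Cyp2e1 (0.242). Among the other reported members rescaling turned hyphae against control of Cyp2d22 (0.15), Cyp4v3 (0.02), Cyp4f39 (0.02) and Cyp20a1 (0.003), and hyphae against conidia of Cyp20a1 (0.11) and Cyp3a13 (0.05). On leaving out a library, conidia against control ranged across 0 for Cyp2t4 (-0.041 to 0.014), Cyp4f16 (-0.117 to 0.112), Cyp26b1 (-2.353 to 0.790) and Cyp2e1 (-1.715 to 0.023). So did hyphae against control for Cyp4f18 (-0.377 to 0.396), and hyphae against conidia for Cyp2b10 (-0.260 to 0.089), Cyp2e1 (-1.147 to 0.760) and Cyp2a5 (-0.631 to 0.511). Without both adipose-rich libraries the sign turned for Cyp4f16 (0.021) and Cyp2e1 (0.023) after conidia and for Cyp2b10 (0.089) and Cyp2a5 (-0.150) between the fungal forms.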
